A study of Mus musculus with 6 samples.

Results

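Claudins are the membrane proteins that form the strands of tight junctions, the seals between neighbouring epithelial cells. Some of them tighten the seal, others form pores for ions or water, and the mixture a cell makes sets how leaky its epithelium is. In the mouse, the stomach makes a form of Cldn18 that limits the leak of acid between cells, and stratified squamous epithelium such as skin depends on Cldn1. The 9 claudin genes described here are those of 14 claudin rows in the deposited table that reached 1 CPM (reads scaled to a library total of 1000000) in at least 2 of 6 libraries: Cldn1, Cldn2, Cldn3, Cldn4, Cldn7, Cldn12, Cldn18, Cldn23 and Cldn25. The table held 15431 usable gene rows, of which 11891 met the same level and were tested. The levels chose the members, and expression of a member somewhere is therefore no result.

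RNA came from cultured epithelium of wild type (WT) mouse stomach, with 2 libraries each of antrum (antrum and pylorus together), corpus and forestomach. Antrum and corpus are labelled as 2D cultures. Antrum and corpus, the glandular regions, are lined by columnar cells and were grown as the study itself describes, and forestomach, lined by stratified squamous cells, by a method published earlier. Region and culture method cannot be told apart in any comparison with forestomach. All sample titles carry the tag p2, and the same 2 IDs appear in every region, with no meaning stated for the tag or the IDs. Nothing ties the IDs to the numbered columns. The labels do not say whether the 2 libraries of a region stand for different animals or separate dishes, so p-values here reflect library-to-library spread only, possibly technical. Libraries are numbered 1 and 2 after the deposited columns. Because the libraries are bulk RNA, fewer cells of a type and less RNA per cell cannot be told apart.

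Total reads behind each library came to about 36.9 to 47.7 M, and 3 reads were worth 0.063 to 0.081 CPM. Forestomach had the widest spread within a region, with 12.5% of tested genes more than 2-fold apart, against 1.35% in antrum and 1.02% in corpus. Markers went with the labels. The 5 squamous markers (Krt5, Krt14, Trp63, Dsg3 and Krt13) summed to 1.49 to 2.77 CPM in antrum, 2.35 to 3.4 CPM in corpus and 10283 to 11765 CPM in forestomach. The 8 gastric glandular markers (Krt8, Krt18, Muc5ac, Muc6, Gkn1, Gkn2, Pgc and Tff2) summed to 2800 to 4318 CPM, 6094 to 6193 CPM and 3.94 to 8.93 CPM in the same order of regions.

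The bases before the start sites of 6 claudins are shown because their levels differ most clearly between regions below. Cldn18, Cldn2 and Cldn7 were almost silent in forestomach, Cldn1 was high there alone, and Cldn4 and Cldn3 are neighbours on chromosome 5, with 0 other coding genes between them in RefSeq, yet averaged 104 and 2.04 CPM per kb of exon in antrum. Each window holds the 250 bases before an annotated start, 5′ to 3′ on the gene's strand, from RefSeq (GRCm38.p6, not the mm9 build of the deposited table). Capitals mark matches, on either strand, to any of the 8 motifs searched.
Cldn18, first start site (chr9:99717268-99717517, minus strand): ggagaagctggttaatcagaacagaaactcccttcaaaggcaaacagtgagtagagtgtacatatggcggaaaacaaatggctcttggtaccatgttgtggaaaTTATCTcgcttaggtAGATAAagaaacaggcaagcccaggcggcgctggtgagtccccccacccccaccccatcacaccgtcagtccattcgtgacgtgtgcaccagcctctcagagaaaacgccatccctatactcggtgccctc
Cldn18, second start site (chr9:99710064-99710313, minus strand): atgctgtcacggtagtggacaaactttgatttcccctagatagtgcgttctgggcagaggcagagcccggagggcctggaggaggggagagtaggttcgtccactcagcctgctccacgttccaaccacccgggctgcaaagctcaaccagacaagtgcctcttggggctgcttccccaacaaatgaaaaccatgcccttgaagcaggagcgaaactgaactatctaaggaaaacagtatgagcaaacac
Cldn2 (chrX:139800558-139800807, plus strand): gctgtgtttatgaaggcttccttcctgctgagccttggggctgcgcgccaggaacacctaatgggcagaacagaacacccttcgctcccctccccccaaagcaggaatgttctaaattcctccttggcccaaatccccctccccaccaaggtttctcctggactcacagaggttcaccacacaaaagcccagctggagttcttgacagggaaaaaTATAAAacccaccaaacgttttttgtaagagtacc
Cldn7, first start site (chr11:69964529-69964778, plus strand): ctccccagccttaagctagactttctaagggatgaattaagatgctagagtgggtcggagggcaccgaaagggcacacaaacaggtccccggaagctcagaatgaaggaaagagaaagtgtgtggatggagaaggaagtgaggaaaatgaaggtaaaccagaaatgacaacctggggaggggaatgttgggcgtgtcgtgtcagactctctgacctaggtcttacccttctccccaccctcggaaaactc
Cldn1 (chr16:26371840-26372089, minus strand): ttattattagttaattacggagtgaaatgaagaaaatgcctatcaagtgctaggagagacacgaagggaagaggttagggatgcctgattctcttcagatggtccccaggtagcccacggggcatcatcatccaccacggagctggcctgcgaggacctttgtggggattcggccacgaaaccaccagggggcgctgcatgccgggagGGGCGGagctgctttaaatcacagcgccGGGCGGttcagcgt
Cldn4 (chr5:134946935-134947184, minus strand): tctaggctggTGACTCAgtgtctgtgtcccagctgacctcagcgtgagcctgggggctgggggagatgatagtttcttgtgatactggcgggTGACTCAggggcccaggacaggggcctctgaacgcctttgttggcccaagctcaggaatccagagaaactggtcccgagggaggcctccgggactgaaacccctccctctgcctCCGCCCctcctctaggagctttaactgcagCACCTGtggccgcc
Cldn3 (chr5:134985964-134986213, plus strand): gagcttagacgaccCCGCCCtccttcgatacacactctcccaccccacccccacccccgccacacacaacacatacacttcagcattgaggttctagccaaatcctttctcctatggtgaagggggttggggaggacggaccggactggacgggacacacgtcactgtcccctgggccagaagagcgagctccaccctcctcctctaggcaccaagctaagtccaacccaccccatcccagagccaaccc

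The motifs were the TATA box (TATAAA), the site of GATA factors (AGATAA), the HNF1 site, an HNF4 site (CAAAGTCCA), a Grainyhead site (AACCNGTT), the E-box of Snail and Zeb proteins (CAGGTG), an AP-1 site (TGANTCA) and the GC box of Sp1 (GGGCGG). No match overlapped another in the windows shown. The Cldn2 window held a TATA box at base -35 from the start, a motif found in 12.4% of all 32851 RefSeq windows of this length. Cldn4 held AP-1 sites at -240 and -158 (6.75% of all windows held at least 1), an E-box at -14 (17.2%) and a GC box at -44 (32.7%). Cldn7 also has 2 annotated start sites. The window of its first, shown above, held no match, and that of its second, which overlaps an annotated exon and is not printed, held E-boxes at -97 and -57 and a GC box at -6. Cldn1 held GC boxes at -42 and -14, and Cldn3 a GC box at -236. Cldn18 has 2 annotated start sites, and its first held GATA sites at -146 and -131 (9.99% of all windows held at least 1), while the second held no match. A table of 1 value per gene does not show which start the reads came from. The GATA sites may therefore lie before a Cldn18 start that these cultures do not use. Windows were found for 7 of the 9 members, the others being Cldn23 and Cldn25. A match describes letters and is no evidence that a factor binds.

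**Figure D1:**
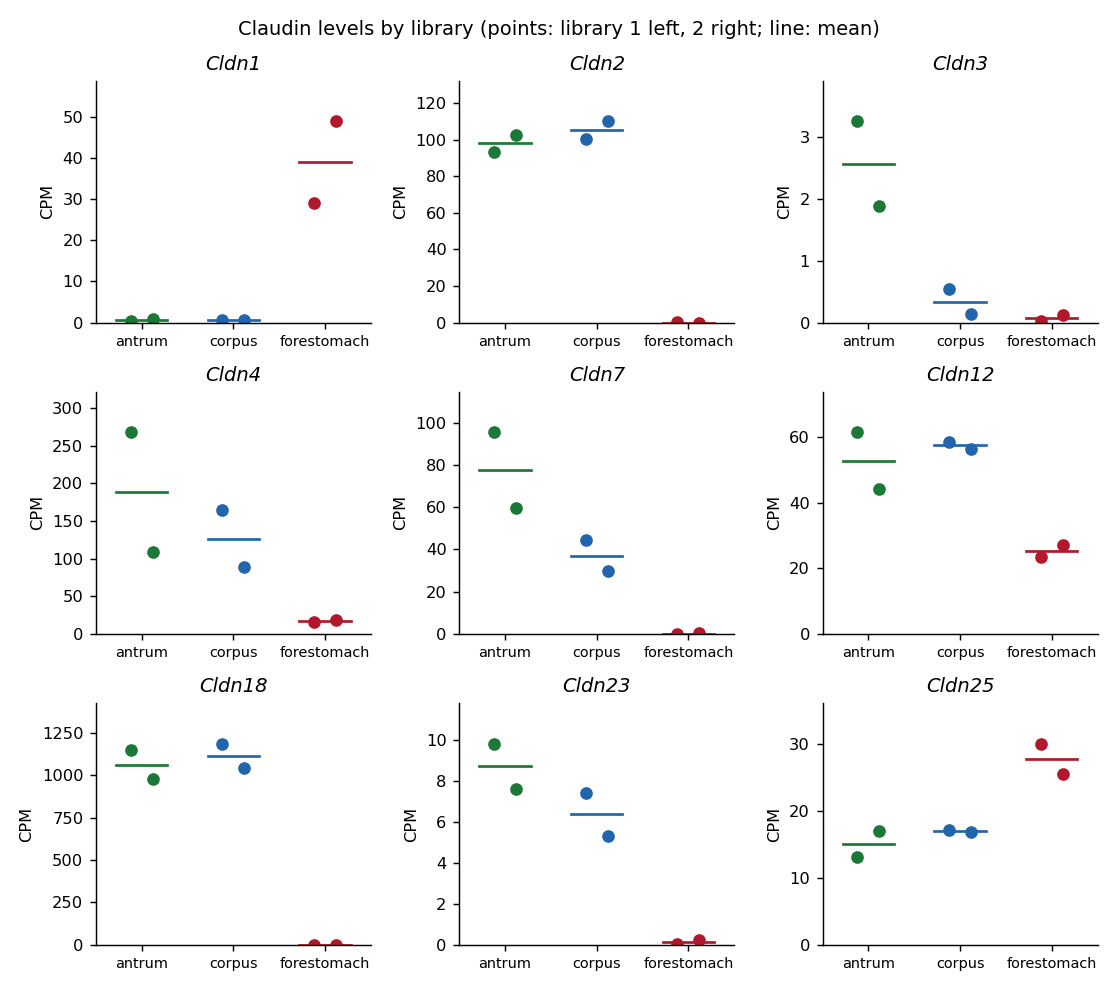
CPM of each of the 9 claudins in the 6 libraries, 1 panel a gene, each with its own linear axis from 0; points are libraries and lines are means of 2. Cldn18, Cldn2, Cldn7 and Cldn23 are near 0 in forestomach, and Cldn1 is under 1 CPM in all 4 glandular libraries.

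The comparison of glandular with forestomach cultures asked how claudins of columnar and squamous epithelium differ in culture. Cldn18, Cldn2, Cldn7 and Cldn23 were present in antrum and corpus at levels between 5.31 and 1189 CPM and stood at 0.22 CPM or less in forestomach. Cldn1 had the opposite pattern. Cldn4 and Cldn12 were expressed in all 3 regions and were higher in the glandular cultures, and Cldn25 was expressed in all 3 and was lower there. Summed over the 9 genes, claudin reads made up 1693 and 1323 CPM in antrum, 1583 and 1349 CPM in corpus, and 97.7 and 119.6 CPM in forestomach.

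Differences are log2 differences of CPM + 1 from a limma fit over all 11891 genes, a scale that understates the change of low genes. Of these genes, 47.8% differed between glandular and forestomach cultures at a Benjamini-Hochberg adjusted p under 0.05, 21.1% higher and 26.7% lower. With libraries rescaled so that their listed genes had the same sum, 55% of the genes that differed were higher, against 44.1% on the deposited scale. Only Cldn4, Cldn12 and Cldn25 reached 1 CPM in at least 2 libraries on each side, and all 3 differed. The other 6 members entered through the side where they are high, so they had to differ and are given by their values, with no test. Pooled reads of these members are compared as ratios with exact 95% intervals, which cover counting error only.

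Cldn18, the claudin of the stomach lining, stood at 1148 and 980 CPM in antrum, 1189 and 1041 CPM in corpus, and 0.03 and 0.02 CPM in forestomach. The forestomach values correspond to 1 read in each library, against 43813 to 49623 reads in each glandular one. The pooled read ratio of glandular over forestomach was 42200, with a counting interval of 11700 to 348000. The log2 difference was 10.05 (SE 0.23). The 4 glandular libraries lay close together, and antrum and corpus overlapped.

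Cldn2, which forms pores for small cations and water, stood at 93.3 and 102.7 CPM in antrum, 100.7 and 110.1 CPM in corpus, and 0.03 and 0 CPM in forestomach. The forestomach libraries together held 1 read of it, and the glandular libraries 17392 (ratio 7980, counting interval 1430 to 315000). The log2 difference was 6.66 (SE 0.21). In the mouse gut, Cldn2 is known for its place in leaky, proliferating crypts. Its levels in the glandular cultures varied little, and antrum and corpus overlapped here too.

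Cldn7, which sits along the lateral membrane and binds the adhesion protein EpCAM, stood at 95.6 and 59.7 CPM in antrum, 44.3 and 29.6 CPM in corpus, and 0.03 and 0.12 CPM in forestomach. The glandular libraries held 9547 reads and the forestomach libraries 6 (ratio 730, counting interval 335 to 1990). The log2 difference was 5.64 (SE 0.28). The glandular libraries spanned a wide range, yet the lowest of them was far above both forestomach libraries.

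Cldn23, a claudin of differentiated intestinal surface cells, stood at 9.81 and 7.61 CPM in antrum, 7.41 and 5.31 CPM in corpus, and 0.05 and 0.22 CPM in forestomach, where it had 2 and 9 reads. Its read ratio was 52.7 (counting interval 29.3 to 106). The log2 difference was 2.89 (SE 0.22), and every glandular library was above both forestomach libraries.

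Cldn1, needed in mouse skin to keep water in the body, stood at 0.44 and 0.9 CPM in antrum, 0.62 and 0.63 CPM in corpus, and 28.9 and 48.9 CPM in forestomach. The glandular libraries held 17 to 42 reads each, so it was low there but not absent. The log2 difference was -4.56 (SE 0.26) and the read ratio 0.0168 (counting interval 0.0138 to 0.0203). The second forestomach library was the higher one, and neither came near the glandular ones.

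Cldn4, a sealing claudin and a receptor for a bacterial enterotoxin, stood at 268 and 108 CPM in antrum, 165 and 88.2 CPM in corpus, and 15.3 and 17.8 CPM in forestomach. It was higher in the glandular cultures by 3.05 on the log2 scale (SE 0.39, 95% interval 2.17 to 3.92, limma adjusted p = 0.000198), in 4 of 4 libraries. The glandular mean was 157 ± 80.6 CPM (SD, n = 4) and the forestomach mean 16.6 ± 1.76 CPM (SD, n = 2). The first libraries of antrum and corpus were the higher ones, and even the lowest glandular library was well above both forestomach ones.

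Cldn12, an atypical claudin linked in mice to passage of calcium between cells, stood at 61.4 and 44.2 CPM in antrum, 58.5 and 56.4 CPM in corpus, and 23.3 and 27.1 CPM in forestomach. It was higher in the glandular cultures by 1.09 (SE 0.24, 95% interval 0.56 to 1.63, limma adjusted p = 0.00444), in 4 of 4 libraries. That is a 2.13-fold difference (95% interval 1.47 to 3.09), with no overlap between the sides and with antrum and corpus overlapping.

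The row named Cldn25 stood at 13.1 and 17 CPM in antrum, 17.1 and 16.8 CPM in corpus, and 30 and 25.4 CPM in forestomach. It was lower in the glandular cultures by a log2 difference of -0.76 (SE 0.23, 95% interval -1.27 to -0.25, limma adjusted p = 0.021), and all 4 glandular libraries lay under both forestomach ones. Without antrum 1, corpus 1 or corpus 2 the adjusted p was 0.0844, 0.0753 or 0.0832, and the call was lost. Which gene this row measures is not settled by its symbol. RefSeq gives Cldn25 as a synonym of both Cldn25-ps and Cldnd1, a claudin-domain gene outside the claudin family proper. The table also lists Cldnd1, at 0 in all 6 libraries, in a trailing block of 1074 rows of which 1062 are at 0 throughout. Patj and Ybx3 are listed at 0 in the same way, while their older symbols Inadl and Csda have reads. Inadl stood at 112 and 95.4 CPM in antrum, 88 and 78.8 CPM in corpus, and 65.3 and 32.7 CPM in forestomach. Csda stood at 178 and 129 CPM in antrum, 169 and 123 CPM in corpus, and 515 and 398 CPM in forestomach. Of the 1311 rows at 0 in every library, 770 have a synonym in RefSeq under which the table gives reads.

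**Figure D2:**
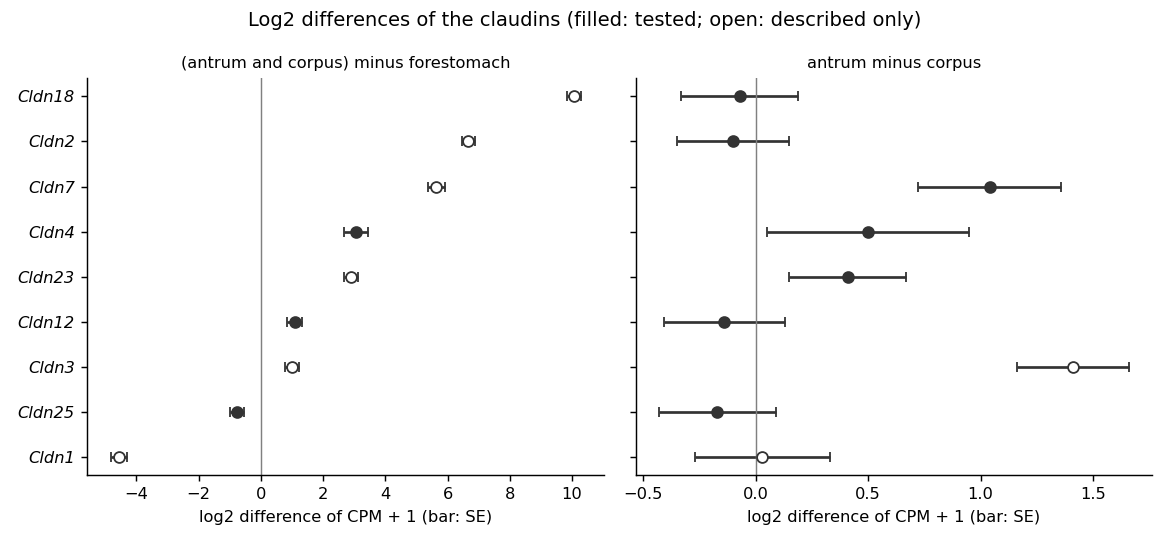
Log2 differences of CPM + 1 for the 9 claudins, glandular (antrum and corpus) minus forestomach on the left and antrum minus corpus on the right, with standard errors; filled points were tested and open points are described only. Differences run from 10.05 for Cldn18 to -4.56 for Cldn1 on the left, and between -0.17 and 1.41 on the right.

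The make-up of the claudin RNA was compared per exon length, since longer transcripts give more reads. Lengths were the merged exons of the GENCODE M21 annotation for 8 members (1259 bases for Cldn3 to 4841 for Cldn1), which may differ from the authors' gene models. Cldn25 has no length and was left out. On this CPM per kb scale, Cldn18 made up 51 and 61.5% of the sum in antrum and 62.2 and 67.3% in corpus, but 0.0337 and 0.0169% in forestomach. Mean levels of Cldn18 were 239 CPM per kb in antrum, 250 in corpus and 0.00561 in forestomach. Cldn4 came second in the glandular libraries, with 29.2 and 16.7% in antrum and 21.2 and 14% in corpus. In forestomach, Cldn4 held 42.1 and 36.9%, Cldn1 29.9 and 38%, and Cldn12 27.6 and 24.1%, so the leading 2 changed places between the libraries and their order is not fixed. The forestomach sum therefore rested on 3 claudins at similar levels per length, and the glandular one mainly on Cldn18.

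**Figure D3:**
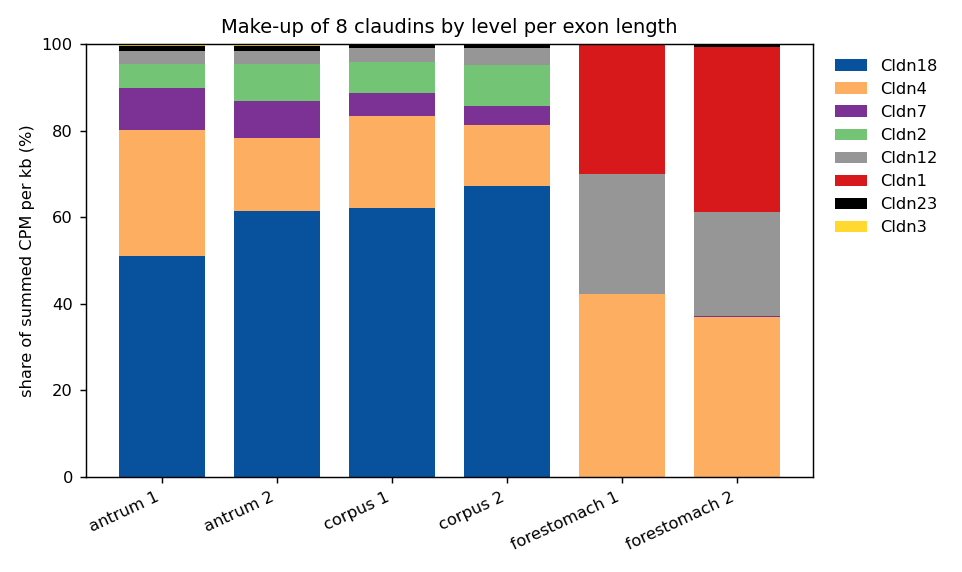
Share of each of 8 claudins (%) in their summed CPM per kb of exon, 1 stacked bar per library. Cldn18 takes between 51 and 67.3% of every glandular bar, while Cldn4, Cldn12 and Cldn1 fill nearly all of both forestomach bars.

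The comparison of antrum with corpus cultures, grown by 1 method, asked how the claudins of the glandular regions differ. No claudin at 1 CPM or more in both regions differed past the threshold. The largest log2 differences were higher levels of Cldn3, which was not tested, and Cldn7 in antrum. Of the 7 members at 1 CPM or more in both libraries of each region, 0 passed at an adjusted p under 0.05 in limma, and 1 had an unadjusted p under 0.05. Over all genes tested, 0.757% passed, 0.555% higher and 0.202% lower in antrum. The median log2 difference of all genes was 0.21 on the deposited scale, and it was 0 after rescaling to a common median ratio.

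Cldn7 was the member with the unadjusted p under 0.05 (adjusted p = 0.311, limma). Its log2 difference of antrum minus corpus was 1.04 (SE 0.32, 95% interval 0.32 to 1.76), and 0.81 after rescaling to the common median ratio. Both antrum libraries, at 95.6 and 59.7 CPM, were above both corpus libraries, at 44.3 and 29.6 CPM.

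Cldn3, a sealing claudin of many simple epithelia, stood at 3.25 and 1.88 CPM in antrum, 0.54 and 0.13 CPM in corpus, and 0.03 and 0.12 CPM in forestomach. These values are 126 and 88 reads in antrum, 20 and 6 in corpus, and 1 and 5 in forestomach. The read ratio of antrum over corpus was 8.12, with a counting interval of 5.39 to 12.7. It entered through the antrum libraries alone, so no test is given, and it is the member just inside the level of the rule. Its log2 difference, 1.41 (SE 0.25), is held down by the added 1 CPM.

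The intestinal markers with values, Cdx2, Vil1 and Lgals4, moved the same way as Cldn7 and Cldn3. They summed to 533 to 621 CPM in antrum, 246 to 312 CPM in corpus and 0.35 to 0.4 CPM in forestomach. Lgals4 and Vil1 made up nearly all of the antrum and corpus sums. In corpus, Lgals4 stood at 232 and 193 CPM and Vil1 at 79.1 and 53 CPM. Cdx1 and Cdh17, of the same marker list, were not listed among the deposited values. Cdx2, the defining transcription factor of the intestine, stood at 0.39 and 0.64 CPM in antrum and at 0 in both corpus libraries. Their part in the claudin differences was not tested.

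The other members gave small differences with wide intervals. Cldn4 differed by 0.5 (SE 0.45, 95% interval -0.52 to 1.51, limma adjusted p = 0.833), and its libraries overlapped between the regions. Without antrum 1, the highest library, its difference was -0.15, with the other antrum library alone set against both corpus libraries. Within both column numbers, which the labels do not pair, Cldn4 was higher in antrum. Cldn23 differed by 0.41 (95% interval -0.18 to 0.99). Cldn18 differed by -0.07 (95% interval -0.67 to 0.53), which leaves room for a 1.44-fold higher or a 0.631-fold level in antrum. Cldn2 (-0.1, 95% interval -0.66 to 0.45), Cldn12 (-0.14, 95% interval -0.75 to 0.48) and Cldn25 (-0.17, 95% interval -0.76 to 0.42) were as close. Cldn1, under 1 CPM in all 4 libraries, overlapped between antrum and corpus.

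Of the other 5 claudin rows, Cldn6 and Cldn8 came nearest to the level of the rule. Cldn6, a claudin of embryonic epithelium, stood at 0.05 and 0 CPM in antrum, 0.11 and 0 CPM in corpus, and 0.4 and 0.94 CPM in forestomach. Cldn8, a sealing claudin known from the kidney, stood at 0.1 and 0.04 CPM in antrum, 0.14 and 0.15 CPM in corpus, and 0.34 and 1.14 CPM in forestomach. Both were highest in the second forestomach library. Cldn17 had 1 and 7 reads in forestomach and was listed at 0 elsewhere. Cldn15, a pore-forming claudin of the intestine, had 6 and 6 reads in antrum, 2 and 3 in corpus, and 0 and 2 in forestomach. Cldn5, the claudin of endothelial cells, had 1 read in all 6 libraries together.

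The levels most like those of the main members were found by the root mean square difference of log2(CPM + 1) over the 6 libraries. For Cldn18 the nearest genes were Apob (0.337), Krt8 (0.453) and Anxa10 (0.842). For Cldn2 they were Hsd17b11 (0.223), Tspan1 (0.225) and St8sia6 (0.308), and for Cldn7 Fer1l4 (0.287), Slc44a4 (0.32) and Kcnq1 (0.331). For Cldn1 they were Nradd (0.242), St3gal2 (0.378) and Dll1 (0.38). The third nearest gene to Cldn4 was Epcam (0.478), after Tnfrsf21 (0.431) and Atp9a (0.455). With 6 libraries in 3 pairs, likeness is mostly a matter of level and of the contrast with forestomach.

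Other tight junction genes were mostly higher in the glandular cultures as well. A list of 38 genes was used, of which 32 were tested and 26 reached 1 CPM in at least 2 libraries on each side. Of these 26, 18 were higher, 2 were lower and the rest did not pass, with a median log2 difference of 1.38, against -0.13 over all genes tested. Of all genes, 21.1% were called higher and 26.7% lower. These values over all genes include genes that entered through 1 side only, which the 26 do not. Over all 32 tested list genes the median was 1.58. The list was chosen with earlier results of these data known. The list holds Ybx3, at 0, and its counts leave out Csda, the older symbol, which was lower (log2 difference -1.61, SE 0.28, limma adjusted p = 0.00124) and was looked at after its values were seen. Without forestomach 2, 5 genes of the list were lower rather than 2.

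Among the scaffold proteins, which tie claudins to the cytoskeleton, Tjp1 (ZO-1) stood at 225 and 212 CPM in antrum, 196 and 197 CPM in corpus, and 114 and 58.4 CPM in forestomach. It was higher in the glandular cultures by 1.33 (SE 0.3, limma adjusted p = 0.00527). Tjp3 (ZO-3) stood at 90.9 and 71.2 CPM in antrum, 64.4 and 46.7 CPM in corpus, and 0.37 and 0.1 CPM in forestomach, and entered through the glandular side alone. Mpdz, a scaffold with many PDZ domains, was lower (-1.79, SE 0.28, limma adjusted p = 0.000675), at 3.82 and 4.24 CPM in antrum, 4.5 and 4.47 CPM in corpus, and 24 and 12.2 CPM in forestomach.

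Occludin (Ocln), a membrane protein of the same strands, had the largest rise among list genes expressed on both sides (5.3, SE 0.25, limma adjusted p = 3.19e-07). It stood at 129 and 127 CPM in antrum, 112 and 97.3 CPM in corpus, and 1.38 and 2.68 CPM in forestomach. Lsr, an angulin that marks corners where cells meet, was higher by 1.15 (SE 0.28, limma adjusted p = 0.00908). Igsf5, a junctional adhesion molecule, stood at 43.1 and 40.9 CPM in antrum, 30.3 and 30.4 CPM in corpus, and 0.11 and 0.1 CPM in forestomach. Arhgef2, a junction-bound activator of RhoA, was higher by 2.18 (SE 0.46, limma adjusted p = 0.00392).

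Epcam, the partner of Cldn7, stood at 176 and 179 CPM in antrum, 152 and 123 CPM in corpus, and 21.8 and 19.9 CPM in forestomach. It was higher in the glandular cultures by 2.85 (SE 0.23, limma adjusted p = 9.07e-06). Spint2, an inhibitor of matriptase, the protease that cleaves EpCAM, was higher by 1.59 (SE 0.29, limma adjusted p = 0.00185), while the matriptase gene St14 did not pass (0.32, SE 0.29, adjusted p = 0.39).

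**Figure D4:**
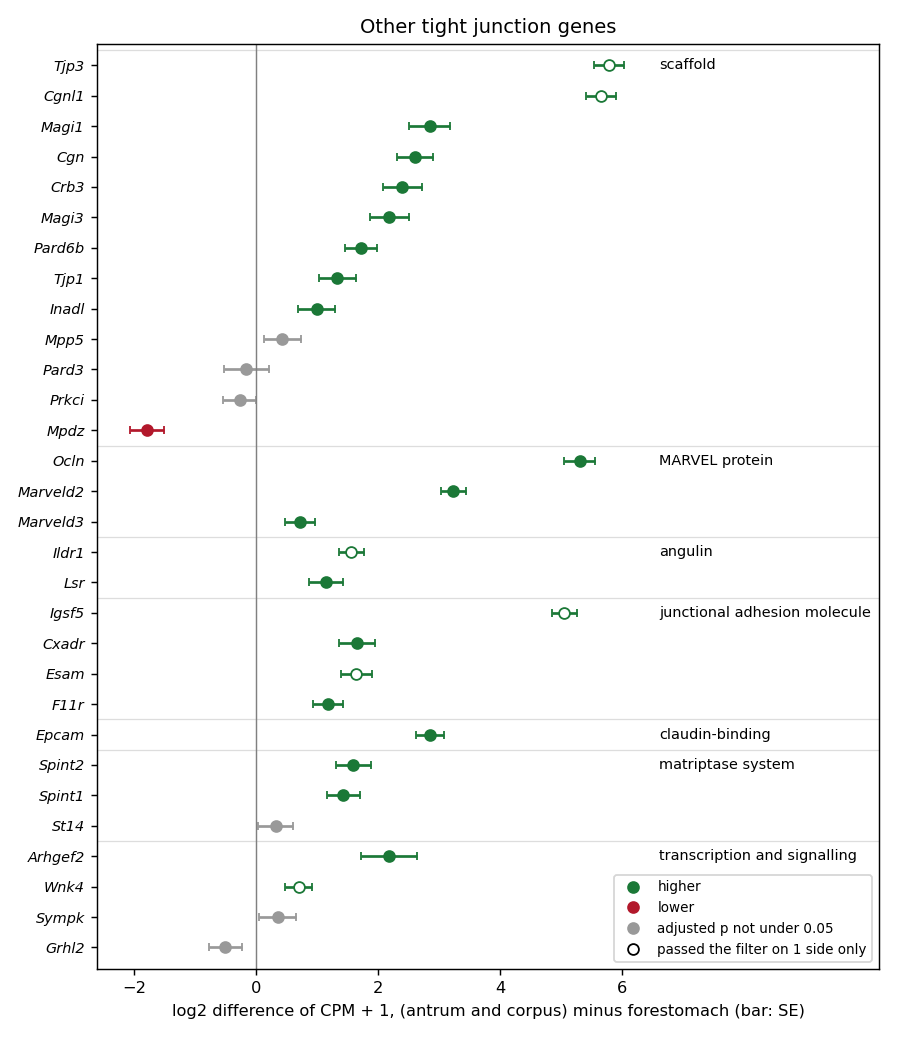
Log2 differences of CPM + 1, glandular (antrum and corpus) minus forestomach, for 30 of the 32 tested genes of the tight junction list, with standard errors, grouped by role; open points passed the level on 1 side only. Green points are higher and red points lower at an adjusted p under 0.05, and Mpdz is the red one. Open points carry the same colours, but their genes entered through 1 side only, so their colour is no test result.

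Between antrum and corpus, 0 of the 31 list genes expressed in both passed in limma, and 1 had an unadjusted p under 0.05. The angulin gene Ildr1 stood at 14.2 and 13 CPM in antrum, 0.81 and 0.52 CPM in corpus, and 0.48 and 0.87 CPM in forestomach. It entered through the antrum libraries alone, like Cldn3, and is given without a test. The list's median log2 difference was 0.27 over its 32 tested genes, against 0.21 over all genes.

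Marker sums of other cells that a culture can hold were higher in the glandular cultures than in forestomach, except the immune sum, which was lower. The 7 fibroblast or feeder genes (Col1a1, Col1a2, Col3a1, Dcn, Lum, Pdgfra and Vim) summed to 50.4 to 55.7 CPM in antrum, 36.4 to 78.6 CPM in corpus, and 0.12 to 0.29 CPM in forestomach. The 5 endothelial genes (Pecam1, Cdh5, Kdr, Tek and Cldn5) summed to 1.08 to 1.37 CPM, 0.82 to 1.46 CPM and 0.3 to 0.5 CPM in the same order, with Cdh5 at 0.11 CPM or less in every library. Tek went the other way, at 0.37 and 0.3 CPM in forestomach and 0.17 CPM or less in every glandular library. The mesothelial markers with values, Msln and Upk3b, summed to 829 to 1558 CPM, 715 to 1111 CPM and 7.46 to 16.5 CPM. Msln made up nearly all of these sums, with Upk3b at 2.71 CPM or less in every library, and Wt1 was not listed. The defining parietal genes were at or near 0, with Atp4a at 1.03 CPM or less and Atp4b at 0.06 CPM or less in every library. With Gif, a chief cell gene in the mouse that makes up nearly all of the sum, the 3 genes of that list summed to 12.2 to 24.4 CPM in antrum, 99.9 to 202 CPM in corpus and 0 to 0.2 CPM in forestomach. The immune markers with values, Ptprc and Cd68, summed to 4.16 to 4.97 CPM, 3.65 to 4.7 CPM and 39.5 to 44.8 CPM, with Ptprc at 0.13 CPM or less in every library. The part of these cells in the claudin differences was not tested.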

How the data were processed

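The authors deposited 1 table of CPM values, rounded to 2 decimals, for 6 libraries of ribosomal RNA-depleted total RNA. STAR, HTSeq, DESeq2 and edgeR with build mm9 are named in the submitters' processing notes, with no version or role. For the annotation and the strand setting, no source used here gives a value, so overlapping and antisense genes may share reads. Columns name a region and a number that the labels do not tie to the sample IDs. Columns called pylorus belong to the antrum samples. Rows whose symbols had turned into dates (19 of 15450) were left out.

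The listed values summed to 33.1% to 48.3% of the full scale per library. Low values lie on even steps of 1 read, which gave each library's total. All values under 200 CPM were then whole reads within 0.0051 CPM. These reads were used for depth and read ratios, and no count test was run on them.

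Genes at 1 CPM or more in 2 of 6 libraries were fitted as log2(CPM + 1) with limma 3.58.1 in R 4.3.3 (3 group means, eBayes with trend, no block; 3 residual and 6.1 prior degrees of freedom). All tests were two-sided and p-values were adjusted over all genes by Benjamini-Hochberg, and the fit was tested on simulated data. A member got a p only where both sides of the comparison reached the level in 2 libraries. Read ratios have exact binomial intervals (scipy 1.17.1). Of the tight junction list, the genes named are those with the largest rise and the largest fall in each role, plus Ocln, Tjp1, Tjp3, Epcam, Lsr and St14, the last chosen after its value was seen. Single-gene results for 2 list genes are not reported here, though the counts include them. The members, lists, motifs and tests were chosen with earlier results of these data known. Alternatives were other pseudocounts, filters and scalings, a replicate block and leaving out each library.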

Additional observations from a re-analysis of the deposited data

How the results depend on the processing

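The directions of Cldn4, Cldn12 and Cldn25 in glandular against forestomach cultures held under the 13 alternatives run, and the calls of Cldn4 and Cldn12 held too. The other 6 claudins kept their directions where they passed the filter. They entered through the side where they are high, so this is no support. Genes differing between antrum and corpus, 90 on the deposited scale, came to 54 with no filter on low values, 31 with a mean of at least 5 CPM, 56 with the listed genes rescaled to the same sum, and 19 to 33 with 1 library left out. The lone library of a region is then assumed to vary like the others. At a mean of at least 5 CPM, 0 tight junction genes passed as higher in antrum, since Ildr1 was no longer in the fit. Ildr1 had entered the main fit through the antrum libraries alone, so its loss is no change of a tested result. With 1 library left out, 2 to 5 tight junction genes were lower in glandular cultures. Differences of antrum minus corpus that reached or crossed 0 with 1 library left out ranged from -0.15 to 1.14 for Cldn4, -0.35 to 0 for Cldn25, -0.17 to 0.23 for Cldn1, -0.37 to 0.1 for Cldn12 and -0.18 to 0.05 for Cldn18. The causes were not tested. With the column number as a replicate block, 33 genes differed between antrum and corpus, and no claudin call changed: Cldn4 and Cldn23, higher in antrum within both numbers, had limma adjusted p = 0.639 and 0.57. Deviations of the numbers correlated at 0.614 between antrum and corpus, but at -0.106 and -0.06 with forestomach, and the labels do not pair the columns. With a pseudocount of 0.1 CPM, the difference of glandular minus forestomach was 13.09 for Cldn18 and 9.8 for Cldn2, so the size of such differences is set by the pseudocount. The planned count test on reads was not run. Depth limits Cldn3 in corpus, with 20 and 6 reads.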
